A study of Mus musculus with 31 samples.

Results

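The enteroendocrine hormone genes were followed in the distal colon of BALB/c mice over 21 days of exposure to E171, the food colour titanium dioxide, in a chemically induced model of colorectal cancer. They were 10 genes chosen by name, Pyy, Insl5, Gcg, Cck, Sst, Nts, Chga, Chgb, Tph1 and Neurod1, out of 24813 genes named on the arrays. They were read by 13 probes, and all 10 were among the 19797 genes that passed the filter on dim probes. Each of the 31 arrays held RNA of 1 mouse. All mice were 4 to 6 weeks of age at the start, were given 1 injection of azoxymethane (AOM, a colon carcinogen) 1 week before the exposure, and drank 2% dextran sulfate sodium (DSS, which injures the colon lining) on the first 5 days. The CRC groups had only water by gavage on top of this, and the CRC + E171 groups had 5 mg/kg body weight of E171 per day by gavage. Mice were taken after 2, 7, 14 and 21 days, 2 males and 2 females in each of the 8 groups, except that CRC after 21 days held 1 male and 2 females. No group without AOM and DSS was among these arrays, so the levels are those of a treated colon throughout.

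Enteroendocrine cells are scattered, hormone-secreting cells of the gut lining. They arise from the same crypt stem cells as absorptive colonocytes and mucus-secreting goblet cells, under transcription factors such as Neurog3 and Neurod1, and they store their products in granules built with chromogranins. Different stretches of the gut carry different hormones. In the colon and rectum, L cells make peptide YY (Pyy), insulin-like peptide 5 (Insl5) and the glucagon-like peptides (from Gcg). Peptide YY slows transit and reduces appetite, and the glucagon-like peptides act on glucose control and on growth of the gut lining. Cholecystokinin (Cck) and neurotensin (Nts) are known mainly from the small intestine, Nts most of all from the ileum. Somatostatin (Sst) from D cells restrains other endocrine cells, and enterochromaffin cells make serotonin through tryptophan hydroxylase 1 (Tph1).

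All levels here are log2 signals relative to the 75th percentile of the spots of the array, so that 0 is that percentile and a difference of 1 is a 2-fold difference in signal. Levels were not compared between genes, because each probe has its own brightness. Signals at the 75th percentile lay between 1717 and 6536 before scaling, and 67.4% to 78.9% of the spots of an array were well above background. The probes for Pyy, Insl5, Cck, Sst, Chga and Chgb, both Gcg probes and 1 Tph1 probe were well above background on all 31 arrays. Neurod1 was so on 29 arrays, the other Tph1 probes on 30 and 28, and Nts on 24. No spot of these genes was saturated.

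Some arrays stood apart, and the results are given with and without them. The posterior Hox genes, which are expressed toward the tail end of the body axis and mark the distal gut, were summarised on each array as the median over 6 genes of the log2 signal minus the gene's mean over all arrays. On 3 arrays labelled distal colon this value was -4.32 (CRC + E171, 7 days, female 2), -5.66 (CRC + E171, 14 days, female 1) and -4.76 (CRC + E171, 14 days, female 2), against -1.40 to 2.34 on the other 28. Hoxb13, which marks the distal colon and rectum, lay at -8.41, -1.76 and -6.83 on these 3 arrays and at 1.29 to 6.49 elsewhere. The anterior Hox genes stood at 1.05 to 2.44 on the same 3 arrays and at 0.55 or lower elsewhere. A list of small intestinal enterocyte genes stood at 0.40, 0.48 and 3.88 there, and at -1.09 to 0.64 on the others, so that 2 of the 3 lay within the range of the others. The posterior Hox markers of the distal gut were thus low on these 3 arrays. Markers of colonocytes and goblet cells, summarised in the same way, were not low there, at 0.62 to 1.84 and 0.53 to 0.98. The colonocyte markers were low on 3 further arrays, at -6.77 and -3.45 in CRC after 7 days (males 1 and 2) and at -3.09 in CRC + E171 after 14 days (male 2), with no other array below -0.11. Goblet cell markers were low on the same arrays (-6.40, -1.91 and -3.70). Genes of stratified squamous epithelium were high on 2 of them (7.50 and 7.00), but also on 4 other arrays, at up to 6.86. Genes of pancreatic acinar cells were high on the CRC 7 days male 2 array (8.25) and on 5 others, at up to 10.1. Genes of neutrophils, white blood cells of acute inflammation, stood at 3.17 to 5.71 on these 3 arrays, with a median of -0.42 and a highest value of 3.24 on the 25 arrays of neither kind. The array labelled CRC 14 days male 2 had Xist and Ddx3y in the range of the females, and is named by its label. The 2 CRC + E171 females after 7 and 14 days with the number 2 were more alike over all genes (SD of the difference 0.496) than the median pair of mice of 1 group (0.822), and only 1 other pair was closer.

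Across the 8 groups, the order of the group means was poorly resolved for all 10 genes. Of the 70 pairs of neighbours in these orders, 1 differed by more than the larger of both SDs, namely Chga in CRC + E171 after 7 days above CRC after 14 days. CRC + E171 after 7 days had the highest mean for 6 genes, Chga, Chgb, Gcg, Neurod1, Sst and Tph1. CRC after 2 days had the highest mean for the L cell hormones Pyy and Insl5, and CRC + E171 after 14 days had the lowest for Pyy, Insl5 and Gcg. Nts was highest in CRC + E171 after 14 days, and Cck in CRC after 7 days. In the groups with a large spread, 1 to 3 arrays lay far from the rest.

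**Figure D1:**
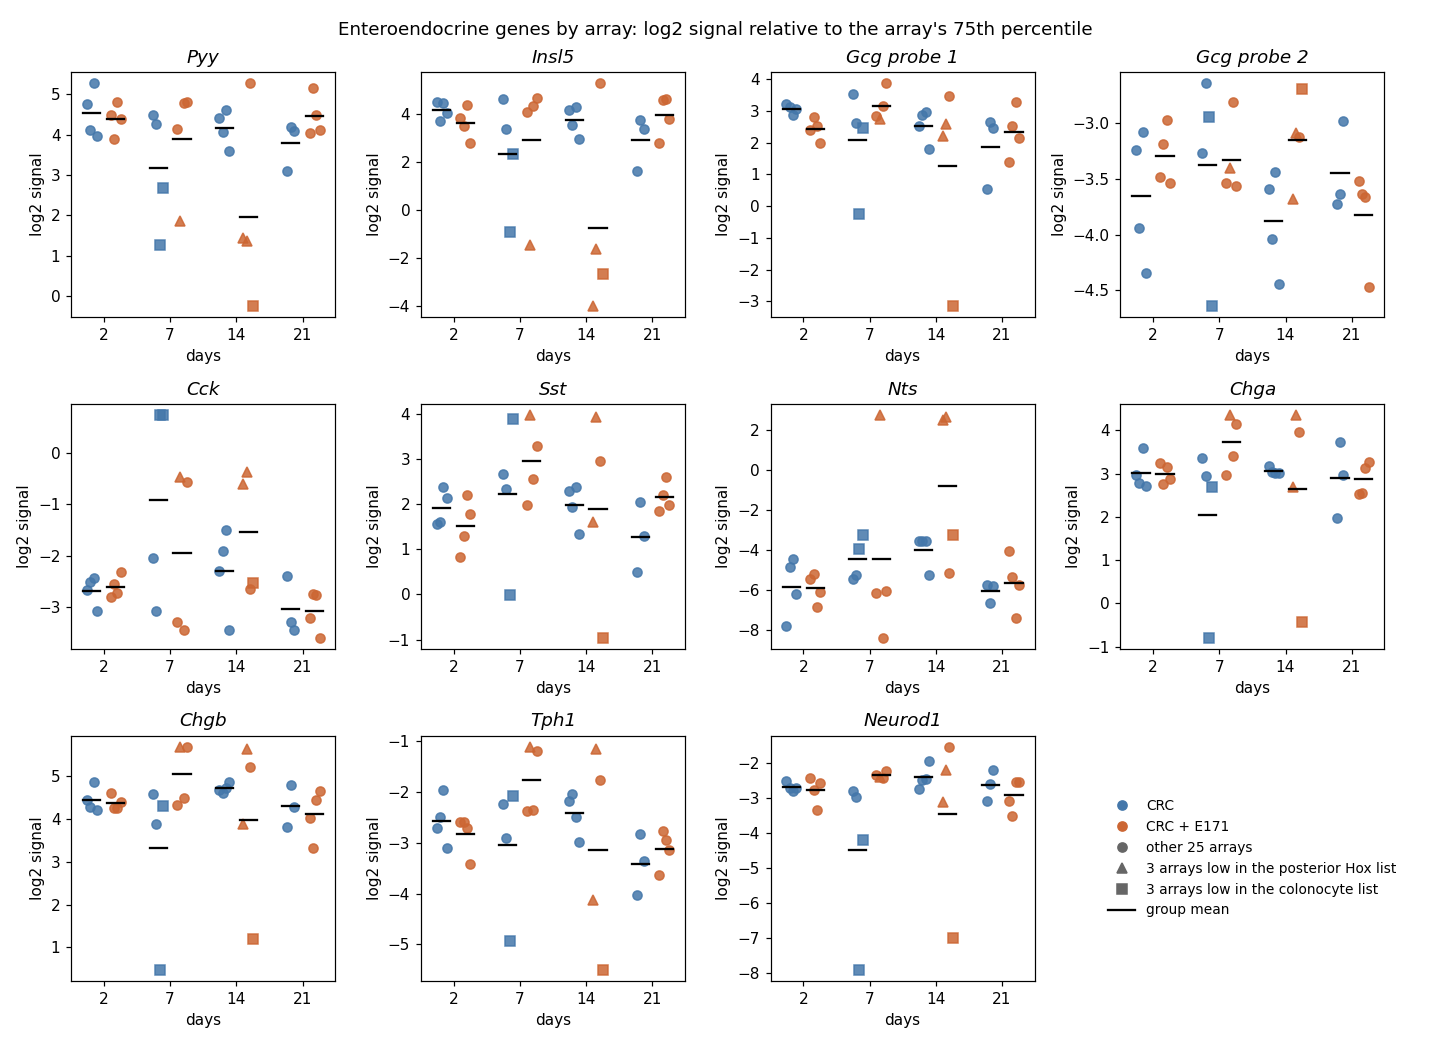
Log2 signal relative to the 75th percentile of the array (vertical axis) by group (horizontal axis) for Pyy, Insl5, Gcg (both probes), Cck, Sst, Nts, Chga, Chgb, Tph1 and Neurod1, with 1 point for each of the 31 mice and bars at the group means. Triangles are the 3 arrays low in posterior Hox genes and squares the 3 arrays low in colonocyte markers. Pyy lay between 3.09 and 5.28 on all 25 other arrays (circles), and every lower value is a triangle or a square.

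Genes are called differentially expressed (DEG) here at a linear fold change of at least 1.5 with an unadjusted p below 0.05 in limma. The methods of the study write the fold change as a log2 value of the same size. At that stricter threshold the same 5 calls of the 10 genes stood, 3 after 7 days, where 3.33% of all genes were called, and 2 after 14 days, where 1.71% were. After 2 days of exposure, 0 of the 10 genes were called, while 1.72% of all genes were. None reached an unadjusted p below 0.05 in limma either, as 2.73% of all genes did. After 7 days, 3 genes were up-regulated, Chga, Chgb and Neurod1, where 12.4% of all genes were called and 6.93% were up-regulated. After 14 days, 2 genes were down-regulated, Pyy and Insl5, where 6.34% of all genes were called and 3.1% were down-regulated. After 21 days, 0 of the 10 genes were called (2.67% of all genes, with 1.82% down-regulated), and none had an unadjusted p below 0.05 in limma (5.8% of all genes). With Benjamini-Hochberg adjustment over the 19797 genes, limma found none of the 10 genes below 0.05 on any day, and no other gene either. The median difference over the 10 genes was -0.11, 0.73, -0.56 and 0.16 after 2, 7, 14 and 21 days, beside 0.06, -0.01, 0.01 and 0.02 over all genes tested.

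**Figure D2:**
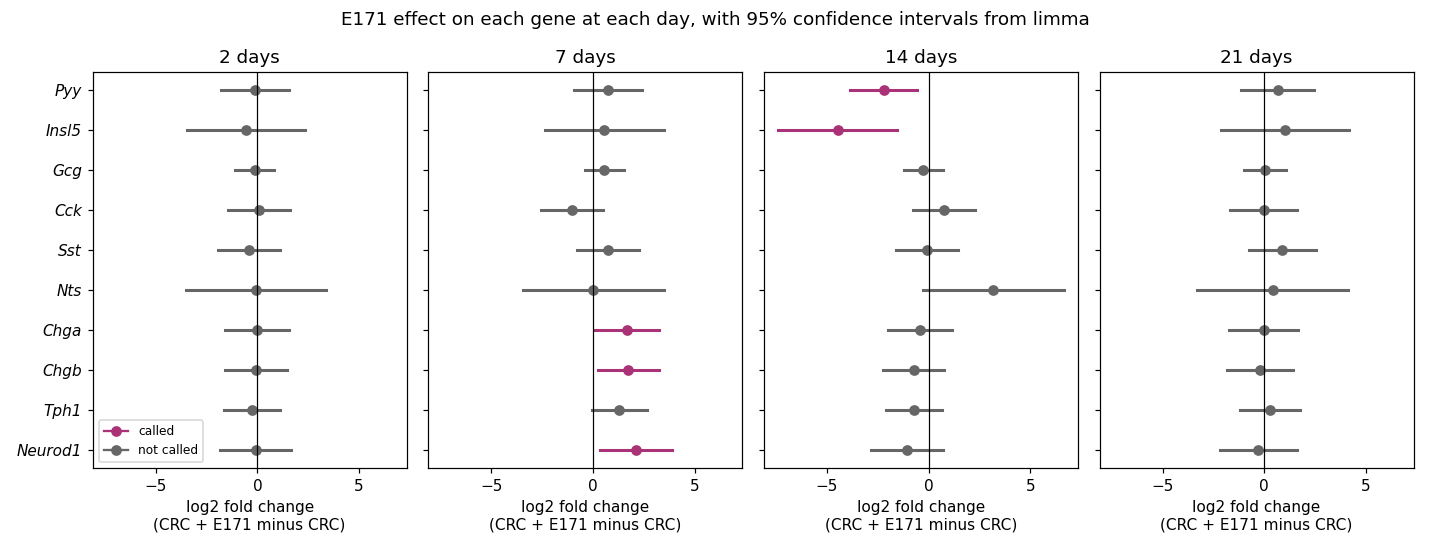
Difference in log2 signal, CRC + E171 minus CRC (horizontal axis), for each of the 10 genes after 2, 7, 14 and 21 days, with 95% confidence intervals from limma. Genes called at a fold change of 1.5 and an unadjusted p of 0.05 are drawn in magenta, 3 of them to the right of 0 after 7 days and 2 to the left of 0 after 14 days.

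The L cell hormones Pyy and Insl5 were the genes called after 14 days, and neurotensin had the largest difference of the 10 in the other direction on that day. The probes of these 3 genes are shown because they tell which stretch of each transcript was read. Each holds an open reading frame of 19 codons over its 60 bases, within the part of the mRNA that encodes the hormone precursor. In the probes for Nts and Pyy, the capitals mark the codons of the paired basic residues at which a prohormone is cut. In the Insl5 probe they mark the cysteine codons, which form the disulfide bonds of the insulin family. The probes are given 5′ to 3′ as on the arrays, with the positions of the array annotation on mm9, at chr11:101968311-101968370 for Pyy, chr4:102690720-102690779 for Insl5 and chr10:101944967-101945026 for Nts, all on the minus strand.
Pyy: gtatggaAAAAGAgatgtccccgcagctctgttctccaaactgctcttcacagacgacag
Insl5: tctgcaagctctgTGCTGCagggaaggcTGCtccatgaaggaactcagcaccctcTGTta
Nts: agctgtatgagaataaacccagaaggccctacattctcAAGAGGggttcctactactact

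After 14 days of exposure, Pyy was down-regulated, with a wide spread among the exposed mice. The 4 CRC mice had log2 signals of 4.42, 4.08, 4.61 and 3.60 (females 1 and 2, males 1 and 2). The CRC + E171 mice had 1.43, 1.36, 5.28 and -0.25 in the same order. Thus 3 of the exposed mice lay below every control, and male 1 lay above every control and was the highest of all 31 arrays. The means were 4.18 ± 0.44 (SD, n = 4) and 1.95 ± 2.35 (SD, n = 4). The difference was -2.22 with an SE of 0.81 and a 95% interval of -3.89 to -0.56. Limma gave an unadjusted p = 0.011 and an adjusted p = 0.532, and an exact two-sided permutation test of the 8 values gave p = 0.143, where the smallest value this design allows is 0.0286. The 3 low values were those of the 2 females low in posterior Hox genes and the male low in colonocyte markers. The posterior Hox value ranged from 0.15 to 1.88 in CRC and from -5.66 to 1.35 in CRC + E171 after 14 days. Of the 6 posterior Hox genes 4 were called lower (3.1% of all genes), Hoxb13 with the largest difference of -5.50. Hoxb13 was well above background on 29 of the 31 arrays. The colonocyte value ranged from -0.11 to 0.19 in CRC and from -3.09 to 1.84 in CRC + E171. Their part in the Pyy result was not tested. Without the arrays low in posterior Hox genes the Pyy difference was -1.66 and no longer called (adjusted p = 0.999). Without those low in colonocyte markers it was -1.49 and just missed the call (adjusted p = 0.254). Without all 6 arrays, male 1 was the only CRC + E171 array left after 14 days, and the difference was 1.10, called in the opposite direction (adjusted p = 0.421). Left out alone, male 2 ended the call (-1.49, adjusted p = 0.408), while without male 1 the difference was -3.33 (adjusted p = 0.0827).

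Insl5, a relaxin-family hormone that acts through the receptor Rxfp4, had the larger difference after 14 days. The CRC mice had 4.15, 3.55, 4.27 and 2.94, and the CRC + E171 mice had -3.99, -1.62, 5.28 and -2.67 (females 1 and 2, males 1 and 2). The mouse with the highest Pyy was also the one with the highest Insl5, and the other 3 exposed mice again lay below every control. The means were 3.73 ± 0.61 in CRC and -0.75 ± 4.14 in CRC + E171 (SD, n = 4 each). The difference of -4.48 had an SE of 1.42 (95% interval -7.40 to -1.56), with an unadjusted limma p = 0.00411, an adjusted p = 0.532 and an exact permutation p = 0.143. It was -2.42 and not called (adjusted p = 0.999) without the arrays low in posterior Hox genes, and -3.84 and called (adjusted p = 0.143) without those low in colonocyte markers, in a fit that called 14.1% of all genes. Without all 6 arrays it was 1.55 and not called (adjusted p = 0.438), with male 1 alone in the exposed group. Insl5 was called whichever single array was left out, with differences from -6.49 to -3.40. After 7 days, the female low in posterior Hox genes had -1.45 for Insl5, where the other 3 exposed mice had 4.07 to 4.65.

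Nts went the other way on the same arrays. After 14 days the CRC mice had -3.57, -3.56, -3.54 and -5.27, and the CRC + E171 mice had 2.52, 2.67, -5.15 and -3.25. Both exposed females lay above every control, male 2 was slightly above them, and male 1 lay within their range. The difference was 3.18 with an SE of 1.68 (95% interval -0.27 to 6.64, limma adjusted p = 0.645), and it missed the threshold. It was 4.00 and called without the arrays low in colonocyte markers (adjusted p = 0.231), where 14.1% of all genes were called against 6.34% over all arrays. Nts was 2.52, 2.67 and 2.77 on the 3 arrays low in posterior Hox genes and -8.42 to -3.25 on the other 28. The small intestinal list, with 4 of its 10 genes called higher (3.24% of all genes), ranged after 14 days from -1.04 to -0.36 in CRC and from -1.07 to 3.88 in CRC + E171, and its part in the Nts values was not tested. Without these 3 arrays the 14-day Nts difference was -0.21. After 7 days the difference was 0.01, with values of -6.19, 2.77, -8.42 and -6.04 in the exposed mice and of -5.48, -5.25, -3.94 and -3.26 in CRC. In the fit without the 3 arrays low in posterior Hox genes it was -2.40 (adjusted p = 0.296), past the threshold of a call in the other direction. Without the 7-day female of these alone it was also -2.40 but was not called. At these levels 2 of the 4 exposed arrays were not well above background. Cck lay at -0.60 to -0.36 on the 3 arrays, at the upper end of -3.61 to -0.57 on the 25 arrays of neither kind. It was highest, at 0.75 each, in CRC 7 days males 1 and 2.

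**Figure D3:**
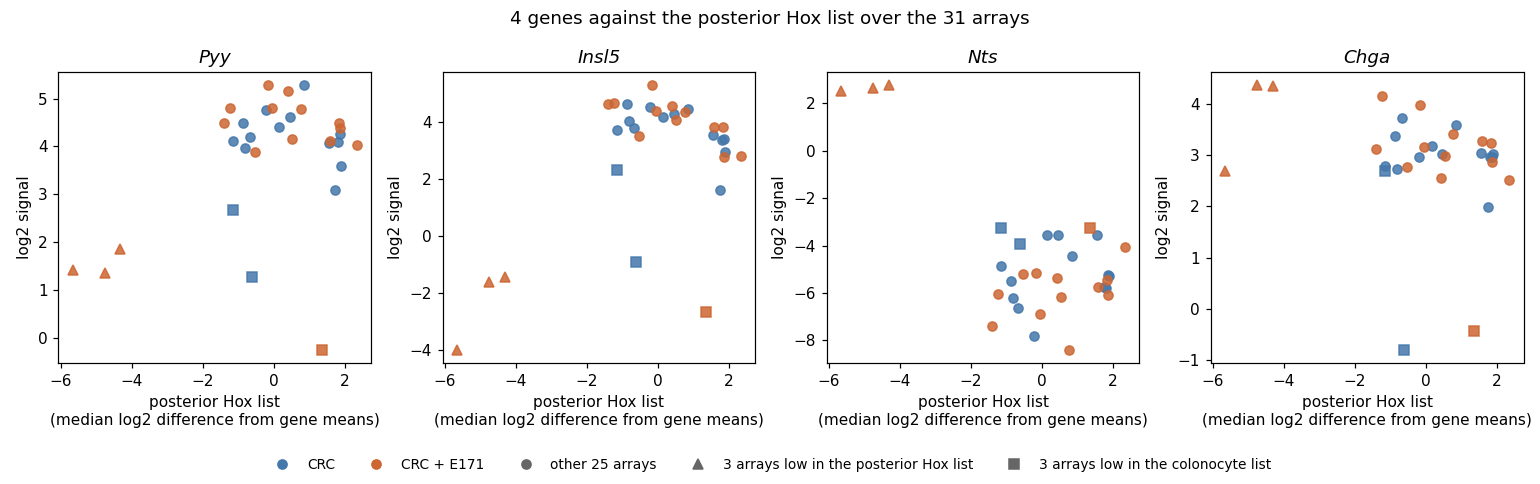
Log2 signal (vertical axis) of Pyy, Insl5, Nts and Chga against the posterior Hox value of the same array (horizontal axis, median over 6 genes of the log2 signal minus the gene mean), 1 point for each of the 31 arrays with the array kinds marked. The 3 arrays at the far left have Insl5 at -3.99 to -1.45 and Nts at 2.52 to 2.77, while Chga there is 2.68 to 4.36, against 1.99 to 4.15 on the 25 other arrays.

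**Figure D4:**
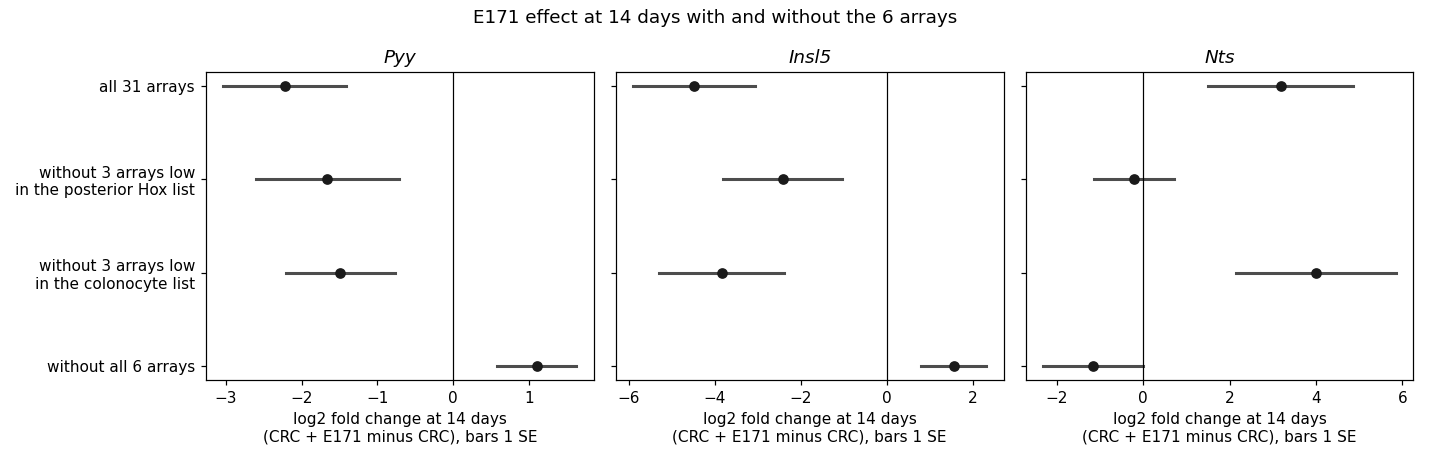
Difference in log2 signal after 14 days, CRC + E171 minus CRC, with 1 SE either way, for Pyy, Insl5 and Nts over all arrays, without the 3 arrays low in posterior Hox genes, without the 3 low in colonocyte markers and without all 6. Pyy goes from -2.22 over all arrays to 1.10 without the 6, where 1 exposed mouse is left.

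The third product of L cells, Gcg, was not called. It was read by 2 probes that did not move together over the arrays (r = -0.20, a description over 31 arrays). The first lies at chr2:62312685-62312744. After 14 days it read 2.53, 2.87, 2.96 and 1.79 in CRC and 2.20, 2.58, 3.48 and -3.14 in CRC + E171, so that male 2 alone lay below the controls. The second probe, at chr2:62318657-62318716, was higher with E171 after 14 days by 0.73, just past the threshold of a call (limma adjusted p = 0.618), with means of -3.15 ± 0.40 against -3.88 ± 0.46 (SD, n = 4 each). After 2 days, the first probe read 3.22, 3.12, 2.86 and 3.07 in CRC and 2.41, 2.82, 2.52 and 2.00 in CRC + E171, so the groups did not overlap (3.9% of all genes did not overlap on that day). That difference of -0.63 had an SE of 0.91, and was not called, and the exact permutation p was 0.0286, the smallest this design allows. Averaged over both probes, Gcg differed by -0.13, 0.56, -0.27 and 0.04 after 2, 7, 14 and 21 days.

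After 7 days of exposure the genes called were those shared by endocrine cells of many kinds, the chromogranins Chga and Chgb, which pack hormones into granules, and Neurod1, a transcription factor of endocrine differentiation. The promoters of both chromogranin genes and of Sst are shown because they hold the core of the cyclic AMP response element, which is well known from the Sst promoter. The sequences are the 120 bases before the RefSeq start on GRCm38.p6, on the strand of the gene, at chr12:102554821-102554940 for Chga (plus), chr2:132781522-132781641 for Chgb (plus) and chr16:23890845-23890964 for Sst (minus). The capitals mark TGACGTCA, or TGACG where only that is present, which begins 44, 72 and 48 bases before the start in Chga, Chgb and Sst.
Chga: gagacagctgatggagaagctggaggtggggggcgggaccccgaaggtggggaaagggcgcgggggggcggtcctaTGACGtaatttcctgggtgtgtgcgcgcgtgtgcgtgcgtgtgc
Chgb: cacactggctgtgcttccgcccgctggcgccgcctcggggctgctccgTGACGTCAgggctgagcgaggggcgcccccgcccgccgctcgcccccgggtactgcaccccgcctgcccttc
Sst: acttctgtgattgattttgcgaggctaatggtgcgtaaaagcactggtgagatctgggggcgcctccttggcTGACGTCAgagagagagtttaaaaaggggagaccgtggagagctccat

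Searched on both strands from 250 bases before to 50 after the start of 27025 genes, TGACGTCA was found in 1.77% of all promoters and in those of 2 of the 10 genes, Sst and Chgb. The shorter TGACG, which TGACGTCA contains, was in 19.8% of all promoters and in 6 of the 10, namely Cck, Sst, Nts, Chga, Chgb and Tph1. The E-box CANNTG, the letters bound by factors of the Neurod1 family, was in 69.3% of all promoters and in 9 of the 10, all but Tph1. TATAAA was in 14.3% of all promoters and in those of Insl5 and Gcg. A match is a description of these windows and was not related to the measured differences.

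In all 3 genes the lowest value after 7 days was that of CRC male 1, and CRC male 2 was low beside the other controls in Neurod1. Chga was 3.37, 2.95, -0.80 and 2.69 in CRC (females 1 and 2, males 1 and 2) and 2.98, 4.35, 3.41 and 4.15 in CRC + E171. The CRC male 1 value was far below the others, and the remaining controls overlapped the exposed mice. The difference was 1.67 with an SE of 0.76 (95% interval 0.10 to 3.24), with an unadjusted limma p = 0.0383, an adjusted p = 0.277 and an exact permutation p = 0.0571. Chgb was 4.58, 3.90, 0.48 and 4.31 in CRC and 4.32, 5.69, 4.49 and 5.69 in CRC + E171, which overlapped in the same way. Its difference was 1.73 with an SE of 0.73 (limma p = 0.0255, adjusted p = 0.244, exact permutation p = 0.114). Neurod1 was -2.80, -2.96, -7.91 and -4.21 in CRC and -2.32, -2.40, -2.41 and -2.23 in CRC + E171. It was the only one of the 10 genes whose groups did not overlap on that day, as 4.85% of all genes did not. The difference was 2.13 with an SE of 0.86 (95% interval 0.36 to 3.90, limma p = 0.0201, adjusted p = 0.232), and the exact permutation p was 0.0286. Neurod1 was not well above background in CRC male 1, so that the value of -7.91 and the size of the difference are not exact.

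Markers of colonocytes and goblet cells and pan-epithelial markers moved with these 3 genes. Of the colonocyte markers 7 of 8 were called higher after 7 days, of the goblet cell markers 6 of 8, and of the pan-epithelial markers 8 of 8, beside 6.93% of all genes. Tuft cell markers had a median difference of -0.28 and squamous markers of -2.69. The colonocyte value ranged from -6.77 to 0.66 in CRC and from 0.31 to 0.73 in CRC + E171, and the goblet value from -6.40 to 0.47 and from 0.15 to 0.98. Called lower were 3 of 9 pancreatic acinar markers and 1 of 6 neutrophil markers, where 5.48% of all genes were. The neutrophil value ranged from -0.69 to 5.71 in CRC and from -2.08 to 3.24 in CRC + E171, with a median difference over the list of -2.53. In bulk tissue, fewer endocrine cells and less hormone RNA per cell cannot be told apart, and the part of tissue makeup in the differences was not tested. Without the 3 arrays low in colonocyte markers, 0 of the 10 genes were called after 7 days in limma and none had an unadjusted p below 0.05, beside 2.65% of all genes called. The differences were then 0.56 for Chga, 0.81 for Chgb and 0.54 for Neurod1 (adjusted p = 0.999 each). Without CRC male 1 alone they were 0.72, 0.79 and 0.98, none of them called. Without CRC + E171 female 2 or male 2, Neurod1 stayed past the threshold but Chga (1.46 and 1.53) and Chgb (1.52 for either) did not. Without the arrays low in posterior Hox genes, Neurod1 was still called (2.15, adjusted p = 0.320) beside Cck (-1.54, adjusted p = 0.347) and Nts, with 11% of all genes called.

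The remaining genes gave no call. Tph1, the enzyme of enterochromaffin serotonin synthesis, was higher after 7 days by 1.29 with an SE of 0.66 (limma adjusted p = 0.323), which missed the threshold. Its values were -2.25, -2.91, -4.94 and -2.08 in CRC and -2.38, -1.11, -2.35 and -1.19 in CRC + E171. The exposed female 2 and male 2, which were highest in Tph1, were also highest in Chga, Chgb and Sst. Of its 3 probes, 1 was past the threshold by itself after 7 days (1.63, adjusted p = 0.284). That probe was not well above background in CRC male 1, where it read -7.81, so that the size of its difference is not exact. Sst was 2.67, 2.33, -0.01 and 3.89 in CRC and 1.99, 3.98, 2.56 and 3.28 in CRC + E171 after 7 days, a difference of 0.73 with an SE of 0.74. After 21 days Sst differed by 0.89 with an SE of 0.80 (adjusted p = 0.932), a difference that was called without the 6 arrays (adjusted p = 0.419). Cck differed by 0.07, -1.04, 0.76 and -0.04 on the 4 days, with SEs of 0.75 to 0.81. After 14 days Neurod1 differed by -1.06 (SE 0.86), with male 2 of CRC + E171 at -7.00, not well above background, and the other 7 mice at -3.12 to -1.52. After 21 days the L cell hormones were higher by 0.66 (Pyy, SE 0.87) and 1.03 (Insl5, SE 1.53), neither past the threshold.

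The slides limited how far E171 could be separated from hybridisation. On each day the CRC and the CRC + E171 arrays lay on different slides, so treatment and slide could not be compared within 1 day. Slides shared by CRC and CRC + E171 arrays of 2 and 14 days gave a mean E171 difference within slides of -2.52 for Insl5 (SE 1.16, limma adjusted p = 0.586) and -1.18 for Pyy (SE 0.60, adjusted p = 0.627), of which Insl5 alone of the 10 genes had an unadjusted p below 0.05, as 8.45% of all genes had. Slides shared by arrays of 7 and 21 days gave 0.94 for Insl5 and 0.78 for Pyy, and none of the 10 genes had an unadjusted p below 0.05 (4.68% of all genes). With slide as a random block, the Pyy difference after 14 days was still -2.22 and called. That model cannot separate treatment from slide within 1 day either, so the unchanged value says nothing on slides. With scan day as a block the Pyy difference was -2.63 and called.

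Over all 31 arrays, none of the 10 genes passed adjustment in limma in any test that spans days or compares sexes. The mean E171 difference over the 4 days was -0.24 for Pyy and -0.86 for Insl5, and 0 of the 10 genes had an unadjusted p below 0.05, against 9.97% of all genes (0.00505% after adjustment). The E171 difference itself varied between days at an unadjusted p below 0.05 for 1 of the 10 genes, Insl5 (adjusted p = 0.717), against 6.52% of all genes. Insl5 did not do so under quantile normalization, normexp background correction, the authors' values or a replicate block, without the arrays low in posterior Hox genes, low in colonocyte markers or both, without those high in acinar or in squamous genes, or in 25 of 31 fits without 1 array. Among CRC + E171 mice, Insl5 (adjusted p = 0.218), Pyy (adjusted p = 0.244) and Nts (adjusted p = 0.260) differed between days before adjustment, 3 of 10 where 14.6% of all genes did. Without the arrays low in posterior Hox genes, or without CRC + E171 14 days female 1 alone, 0 of the 10 did in limma. Without those low in colonocyte markers 5 did, Cck, Insl5, Nts, Sst and Tph1, beside 23.2% of all genes, and without all 6 arrays 3 did, Neurod1, Sst and Tph1, beside 18.4%. Without CRC + E171 14 days male 1 Insl5, Nts and Pyy did (16.5% of all genes), and 2 of the 10 passed adjustment in limma (0.318%). Without male 2 of that group Nts alone did, and without female 2 of that group Insl5 and Tph1. Among CRC mice 0 of 10 did, against 9.89% of all genes. By the labelled sex, with the groups kept in the fit, Nts was higher in females than in males by 1.71 (SE 0.80, adjusted p = 0.547), the only one of the 10 genes with an unadjusted p below 0.05 (8.79% of all genes, and 0.0556% after adjustment). In limma 0 of the 10 did so without the arrays low in posterior Hox genes, or without the array labelled CRC 14 days male 2, and Nts did not in 13 of 31 fits without 1 array. Insl5, Nts and Pyy did without the arrays low in colonocyte markers (11.9% of all genes), and Sst alone did without all 6 (14.1%). The E171 difference after 7 days was not the same in females and males before adjustment for Cck, Insl5, Nts and Pyy, 4 of 10 where 18.2% of all genes were so (3.71% after adjustment, with none of the 10 among them). After 14 days and over the 4 days this held for Nts alone, 1 of 10 where 8.18% and 5.32% of all genes were so. All 3 arrays low in posterior Hox genes were from females.

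Over the arrays, some of the genes moved together. Deviations from the group means were correlated for all 45 pairs of genes, with permutation p-values adjusted over the 45. The 6 arrays that stood apart form separate clusters, and the values given are those of the 24 arrays left without them and without the lone exposed mouse of 14 days. Over these, 14 pairs passed an adjusted p of 0.05, all of them positive. Pyy and Insl5, both of L cells, had r = 0.77 and rho = 0.79 (permutation p = 7e-05, adjusted p = 0.0018), and r = 0.76 without the 2 arrays farthest from the median. Insl5 and Gcg (mean of its probes) had r = 0.82 and rho = 0.81 (permutation p = 0.00026, adjusted p = 0.0039), and r = 0.75 without the 2 farthest. Pyy with Insl5, and Insl5 with the mean of the Gcg probes, thus also moved together without those 6 arrays. Chga and Chgb had r = 0.85 and rho = 0.85 (permutation p = 8e-05, adjusted p = 0.0018), and r = 0.83 without the 2 farthest. Chga and Tph1 had r = 0.73 and rho = 0.67 (permutation p = 0.00179, adjusted p = 0.0134), and r = 0.65 without the 2 farthest. Over all 31 arrays 18 pairs passed, 1 of them negative, Insl5 with Nts.

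Among all genes tested, those most like each hormone over the 31 arrays, the 6 apart included, were ranked by Pearson r of the deviations from the group means. For Pyy they were Insl5 (0.92), Ppy (0.91), Wfdc16 (0.90), Gpr119 (0.88) and Rdh16f2 (0.87). Ppy encodes pancreatic polypeptide, the closest relative of peptide YY, and Gpr119 is a lipid-sensing receptor of L cells. For Insl5 they were Armc3 (0.95), Sval3 (0.94), Pyy (0.92), Wfdc16 (0.91) and Ppy (0.89). For Chga they were Chgb (0.98), Ptprn2 (0.93), Spdef (0.93), Slc18a1 (0.93) and Muc2 (0.92), of which Ptprn2 and Slc18a1 encode proteins of secretory granules, and Spdef and Muc2 belong to goblet cells. For Tph1 they were Chga (0.90), Sst (0.89), P2rx4 (0.89), Chgb (0.88) and Tspan13 (0.86).

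Of the 73 other genes of the enteroendocrine system tested in 5 lists, 12 (16.4%) were up-regulated after 7 days, beside 6.93% of all genes, and 9 (12.3%) were down-regulated after 14 days, beside 3.1% of all genes. Without the arrays low in colonocyte markers 1 (1.37%) was up-regulated after 7 days, beside 1.22% of all genes, and after 14 days 4 (5.48%) were higher and 5 (6.85%) lower, beside 6.59% and 7.5% of all genes. Without those low in posterior Hox genes 9 (12.3%) were up-regulated after 7 days, beside 6.26% of all genes, and 4 (5.48%) down-regulated after 14 days, beside 1.67%. At the stricter fold change threshold 6 were called after 7 days, beside 3.33% of all genes, and 3 after 14 days, beside 1.71%. Of 8 other gut hormones tested, Sct (secretin) was up-regulated after 7 days by 1.84, and after 14 days Ppy (-2.28), Gast (gastrin, -1.56) and Tac1 (tachykinin precursor, -1.19) were down-regulated. Their median difference was -0.10, 0.14, -0.88 and 0.30 on the 4 days. Sct after 7 days and Ppy after 14 days were not called without the arrays low in posterior Hox genes, and Gast and Tac1 were. Without those low in colonocyte markers neither Sct after 7 days nor Ppy was called, and without all 6 arrays Ppy was called higher, against the lone exposed mouse. Sct stood at 4.69 to 5.76 on the 3 arrays low in posterior Hox genes and at 3.31 or lower on the others. Of 16 transcription factors of the lineage, 5 were up-regulated after 7 days, with Pax4 (1.69), Lmx1a (1.29) and Rfx6 (1.29) highest and a median of 0.88. After 14 days 2 of them, Lmx1a (-1.17) and Pax6 (-0.92), were down-regulated, with a median of -0.81. Without the 3 arrays low in colonocyte markers, 0 of the 16 were called after 7 days in limma and Isl1 alone after 14 days. Without those low in posterior Hox genes, Pax4 was not called after 7 days, and Lmx1a alone was called after 14 days. Without all 6 arrays, Nkx2-2 and Rfx6 were called higher after 14 days against the lone exposed mouse.

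Of 21 genes of granules and prohormone processing, 2 were up-regulated after 7 days, Slc18a1 (1.72), the monoamine transporter of granules, and Ddc (1.57), the enzyme that completes serotonin, beside 6.93% of all genes. Neither was called without the arrays low in colonocyte markers. The prohormone convertases and carboxypeptidase that cut Pyy, Insl5 and Nts were in this list, and none was called over all arrays. Pcsk1, a prohormone convertase, was called higher after 14 days without the arrays low in colonocyte markers (1.60, adjusted p = 0.164). In that fit Syt13 of the same list was called lower (-0.76, limma adjusted p = 0.0842). Of all genes, 6.59% were called higher there and 7.5% lower. The list's median difference was 0.01, 0.29, -0.34 and -0.14 on the 4 days. Of 8 nutrient sensors, Ffar2 (2.06) and Ffar4 (1.18), receptors for short- and long-chain fatty acids, were up-regulated after 7 days. Slc15a1 (-2.16), Gpr119 (-1.47) and the bile acid receptor Gpbar1 (-0.70) were down-regulated after 14 days. Their median difference was -0.21 after 2 days, -0.57 after 14 days and 0.33 after 21 days, and was largest after 7 days. Without the arrays low in colonocyte markers, 0 of these sensors were called after 7 days in limma and Gpbar1 alone, 1 of 8, after 14 days. Without those low in posterior Hox genes Slc15a1 was called higher after 7 days in place of Ffar2 and Ffar4, and 0 sensors were called after 14 days, where 3.09% of all genes were. Of 20 receptors and genes of hormone removal, Cckbr (1.02) was up-regulated after 2 days (1.55% of all genes), Maoa (2.05) and Sort1 (0.89) after 7 days (6.93%), and Rxfp4 (-0.79), the receptor of Insl5, was down-regulated after 14 days (3.1%). Their medians were 0.19, 0.29, -0.14 and 0.07. Rxfp4 was not called without the arrays low in posterior Hox genes or those low in colonocyte markers, and Maoa and Sort1 after 7 days were not called without the latter.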

How the data were processed

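RNA of the distal colon of 31 mice was hybridised to one-colour Agilent SurePrint G3 mouse arrays, 1 array per mouse. The intensity values deposited are processed signals of Agilent Feature Extraction 10.7.3.1, which the software had detrended and background-subtracted. The log2 values of the authors' own normalized table, which were merged by probe and had missing values imputed, were used as an alternative only, and the authors' lists of changed genes were not used. Each processed signal was divided by the 75th percentile of its array and taken to log2. Control spots were left out. Spots of a probe and then probes of a gene were averaged. A probe was kept when it was well above background on at least 60% of the arrays of a group, with a mean log2 signal of at least 4, which left 42787 of 56605 probes. Of these, 34344 could be assigned to RefSeq genes (26956 through the accession, 7020 through the symbol, 368 through a synonym), giving 19797 genes, of which 56 lacked a value on some array and were fitted on the others.

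One limma model (limma 3.58.1, R 4.3.3) with a mean for each of the 8 groups was fitted to all genes, with Benjamini-Hochberg adjustment over all of them. DEG had a linear fold change of at least 1.5 and an unadjusted p below 0.05. The study's methods write this threshold as a log2 fold change, which was tried as an alternative. All reported p-values without another name are from this model, and they measure the spread between these mice. Exact permutation tests compared the arrays of both groups for single genes, and correlations used 100000 permutations. The steps were tested on simulated data.

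The 10 genes and the lists of related and marker genes were chosen with earlier results of these data known. The genes named are the 10, up to 3 largest increases and decreases among called genes of each list and day, and the 5 genes most like Pyy, Insl5, Chga and Tph1. The Hox genes, Sct and the genes named where arrays were left out were named after their values were seen. The lists of small intestinal enterocytes and of Paneth cells were added to those fixed at the outset. Promoters are RefSeq sequences on GRCm38.p6 and were found for all 10 genes. Probe positions are those of the array annotation (mm9), and no genome of that build was used here.

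Alternatives were quantile normalization, normexp background correction (offset 50), no filter and a stricter one, the authors' values, the brightest probe of a gene, only the groups compared, sex, replicate number, slide or scan day in the model, array weights, a robust trended prior, other fold change thresholds, leaving out each array, and leaving out arrays high in acinar or squamous genes or low in posterior Hox genes. Leaving out the arrays low in colonocyte markers (a value more than 2 below the median array), alone or with those low in posterior Hox genes, was added after the data had been seen. Replicate numbers were not taken to pair the mice, since the labels tie them to nothing shared and not every pair of same-numbered arrays had deviations with a correlation above 0.1. Over 15 pairs it ran from -0.18 to 0.48, and 8 pairs, all those of 21 days among them, exceeded 0.1.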

Additional observations from a re-analysis of the deposited data

Results flagged for a closer look

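In 7 of the 77 sets of arrays tested, a set being 1 gene or probe in a group of 4 mice, 1 array lay apart from the other 3 by Dixon's criterion, which chance meets in about 1 in 20 groups. Both chromogranins were low in CRC after 7 days in male 1, Chga at -0.80 with the next value at 2.69 and Chgb at 0.48 with the next at 3.90. Insl5 in CRC + E171 after 7 days was -1.45 in female 2, with the next at 4.07. Nts in CRC after 14 days was -5.27 in male 2, the array whose Xist and Ddx3y levels did not match its label, with the next at -3.57. Chga in CRC after 14 days was 3.18 in female 1 with the next at 3.03, a small distance in a group with little spread. Tph1 in CRC + E171 after 2 days was -3.43 in male 2 with the next at -2.72. The second Gcg probe in CRC + E171 after 21 days was -4.47 in male 2 with the next at -3.66.

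The E171 difference varied between groups at an unadjusted p below 0.05 for a few genes, and in limma none of them passed adjustment over all genes. Between the 4 days it varied for Insl5 (F = 3.01, adjusted p = 0.717). Between the sexes after 7 days (female minus male difference), it varied for Cck (3.44, adjusted p = 0.120), Insl5 (-6.48, adjusted p = 0.207), Nts (7.29, adjusted p = 0.123) and Pyy (-4.19, adjusted p = 0.167). These were 4 of the 10 genes, where 18.2% of all genes had an unadjusted p below 0.05. In that test the CRC males were the 2 arrays low in colonocyte markers, and 1 of the 2 exposed females was low in posterior Hox genes. The Nts difference also varied between the sexes after 14 days (5.96, adjusted p = 0.545) and over the 4 days (4.42, adjusted p = 0.623), with all 3 arrays low in posterior Hox genes being those of females. Both of these comparisons count the CRC 14 days male 2 array as male, as labelled, although its Xist and Ddx3y were in the range of the females. Their part in these values was not tested.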

How the results depend on the processing

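The number of the 10 genes called after 7 days was 3. Of all genes 12.4% were called. The number was 0 with only the groups compared, with array weights, without the arrays low in colonocyte markers (2.65% of all genes) and without all 6 arrays (2.77%). It was 1 with scan day in the model or without the arrays high in squamous genes. Leaving out 1 array gave 0 to 4. After 14 days 2 were called (6.34% of all genes), and 1 with only the groups compared or without the squamous arrays. It was 0 without the arrays low in posterior Hox genes (3.09% of all genes), and 2 to 3 without 1 array. After 21 days 0 were called (2.67% of all genes), and 1 with only the groups compared or without all 6 arrays (4.69% of all genes without the 6). Since the share of all genes moved between fits as well, these counts alone say little about the 10 genes. The Pyy difference after 14 days of -2.22 is the same by construction with only the groups compared, and it was not called there (adjusted p = 0.568). It was -1.49 without the squamous arrays, -1.66 without the arrays low in posterior Hox genes, -1.49 without those low in colonocyte markers, and 1.10 without all 6. Without 1 array it ran from -3.33 to -1.49 and was called in 30 of 31 fits. It stayed called at -2.30 under quantile normalization, -2.08 under normexp, -2.12 in the authors' values and -2.41 without the CRC 14 days male 2 array. Reversed were also Insl5 (1.55) and Neurod1 (0.88) after 14 days without all 6 arrays, where 1 exposed array was left and was assumed to vary like the others, and Nts after 7 days without the arrays low in posterior Hox genes (-2.40).

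Without 1 array, calls also began for Tph1 after 7 days (5 arrays, 1.29 to 1.61), Cck after 7 days without CRC 7 days female 2 (-1.77), Nts after 14 days (3 arrays, 3.18 to 4.63) and Tph1 after 14 days without CRC + E171 female 2 (-1.38). The number of the 10 genes that differed between days in CRC + E171 with an adjusted p below 0.05 was 0 to 2. It was 2 without CRC + E171 14 days male 1, where 0.318% of all genes did, against 0% over all arrays. The number with a sex difference in the mean E171 effect was 0 to 1 (1 without CRC + E171 7 days female 1), beside 0.00505% of all genes over all arrays. Of 640 single-gene differences under the alternatives chosen at the outset, other than leaving out 1 array, 52 changed sign, 1 of them called over all arrays or under the alternative, with 16 calls lost and 8 gained. Of 80 without the arrays low in colonocyte markers, alone or with those low in posterior Hox genes, 23 changed sign, 3 of them called on either side (Pyy on both, Insl5 over all arrays only, Neurod1 without the 6 arrays only), with 8 calls lost and 3 gained. Of 1240 without 1 array 40 changed sign, none of them called on either side, with 8 calls lost and 10 gained. The replicate block left the Pyy difference at -2.22 by construction, as both 14-day groups hold every replicate (adjusted p = 0.360). It kept the same 5 calls, and with it Insl5 no longer varied between days in its E171 difference at an unadjusted p below 0.05 (0 of 10 genes). The causes of these changes were not tested. The small number of mice per group limits the precision, and Nts was near background on 7 arrays.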

Other observations

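The other marker lists gave 0 or 1 call each on each day. After 7 days 1 of 7 tuft cell genes and 1 of 6 neutrophil genes were called lower (5.48% of all genes) and 1 of 10 enteric neuron genes higher (6.93%). After 14 days 1 of 8 smooth muscle genes, 1 of 6 neutrophil genes, 1 of 6 islet beta cell genes and 1 of 5 Paneth cell genes were called lower (3.1% of all genes). After 7 days and after 14 days 1 of 7 anterior Hox genes was called higher (6.93% and 3.24% of all genes), after 2 days 1 of 6 islet genes was called higher (1.55%), and after 21 days 1 of 5 Paneth cell genes lower (1.82%). None of the 5 enteric glia, 6 B cell, 7 proliferation or 6 squamous genes were called in limma on any day. The list of islet beta cells, which also express Chga, Chgb and Neurod1, stood at -0.85 to 0.45 on the 3 arrays low in posterior Hox genes.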
